A study of Mus musculus with 18 samples.

Results

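The valine tRNAs of the mouse hippocampus carry the anticodons AAC, CAC and TAC, and all entries of these families in a table of small RNA reads were gathered here. They were found by name, as the entries that start with tRNA-Val- and hold reads of mature tRNA (whole, 5′ end, 3′ end and other reads) or of precursor tRNA (whole, partial and trailer reads). This gave 98 of the 3574 entries of the table, namely 11 of 213 mature tRNA species with 4 read types each and 18 of 335 pre-tRNA loci with 3 read types each. tRNA-Val-AAC had 5 mature species and 7 loci, tRNA-Val-CAC 5 species and 8 loci, and tRNA-Val-TAC 1 species and 3 loci. A further 11 entries of antisense reads were left out. In RefSeq's GRCm38.p6 annotation 24 valine tRNA genes are named (9 AAC, 12 CAC and 3 TAC), and these symbols were not matched to the loci of the table.

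Hydro-tRNA-seq, in which gel-purified tRNAs are broken by alkaline hydrolysis before sequencing so that structure and base modifications block fewer reads, was run on 1 library per mouse. The comparison was made to ask how knocking down RTP801, a stress-induced protein, in hippocampal neurons affects tRNAs in mice of the 5xFAD line and in WT mice. Of the control hairpin (shCT) there were 5 WT and 3 5xFAD mice, and of the hairpin against RTP801 (shRTP801) 4 WT and 6 5xFAD mice. 5xFAD mice, an Alzheimer's disease model, carry transgenes driven by the neuronal Thy-1 promoter, and WT mice had a B6SJL background. All mice were male and, at 6 months, received neuron-targeted rAAV2/8 in CA1 and dentate gyrus of both sides, carrying GFP under the RSV promoter and either hairpin under the H1 promoter. Both hippocampi were taken 4 weeks later, so every library, control or not, is from virus-injected tissue that holds transduced neurons among all other cells.

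A tRNA carries its amino acid to the ribosome and reads the codon through its anticodon. The A at the first anticodon position of tRNA-Val-AAC is edited to inosine in eukaryotes, which lets it read several valine codons, while tRNA-Val-CAC reads the codon GUG and tRNA-Val-TAC mainly GUA. RNA polymerase III makes each pre-tRNA with a 5′ leader and a 3′ trailer, which are then trimmed away. Loci with the same mature sequence differ in these flanks, so that precursor reads can be assigned to a locus and mature reads at best to a species.

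Depth and libraries were checked first. Valine tRNAs had from 444526 to 1144270 mature reads and from 964 to 16000 precursor reads per library, out of 9850676 to 20292469 mature and 47875 to 318628 precursor tRNA reads. Tissue markers gave a mixed and thin picture. Mir124, a neuronal microRNA, was found in 17 of 18 libraries, but at a median of 5 reads, and the brain microRNA Mir9 in only 4. Of the brain small nucleolar RNAs, Snord116 was found in 15 libraries and Snord115 had 0 entries, as had the liver microRNA Mir122 and the muscle microRNAs Mir1 and Mir133. The neuron-enriched tRNA-Arg-TCT-4 was found in all 18. The libraries of WT shCT mouse 5, WT shRTP801 mouse 4 and 5xFAD shRTP801 mouse 7 stood apart from the others. Mitochondrial tRNAs made up 0.00315% to 0.438% of their tRNA reads against 9.24% to 51.4% in the other 15, and mature tRNAs 96.1% to 98.7% of all reads in the table against 12.0% to 73.3%. Snord116 had 0 reads in each of these 3 libraries and 141 to 10126 reads in the others. None of these 3 libraries belonged to 5xFAD shCT, so the changes that rest on them are given with and without them.

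The split into read types differed strongly between valine species that share an anticodon, although part of their counts was nearly equal. The other reads of tRNA-Val-CAC-4 differed by 0.00916% from those of tRNA-Val-CAC-2. The 3′ reads of tRNA-Val-AAC-5 differed by 2.35% from those of tRNA-Val-AAC-1. Of the reads of tRNA-Val-AAC-5, between 85.4% and 98.3% ended at the 3′ end of the mature tRNA, and of tRNA-Val-AAC-1 between 67.5% and 96.6%. tRNA-Val-AAC-4 went the other way, with 51.8% to 85.0% of its reads starting at the 5′ end. tRNA-Val-CAC-4 stood out among the tested CAC species, since a median of only 1.57% of its reads reached the 3′ end, against 70.9% for tRNA-Val-CAC-2, and 34.8% to 72.5% touched neither end.

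Reads that covered the whole mature tRNA were rare in every valine species and most frequent in tRNA-Val-TAC-1, with a median of 2.13% of its reads and a highest value of 3.05%. Over all mature tRNAs, the median library had 0.981% whole, 10.1% 5′, 73.7% 3′ and 13.8% other reads. The 5′ share of tRNA-Val-TAC-1 was 72.0% to 79.0% in the 3 libraries that stood apart and 23.2% to 50.5% in the other 15, whereas the 5′ share of tRNA-Val-CAC-2 was 1.43% to 1.94% in the 3 and 5.66% to 29.1% in the rest. Whether the low share of mitochondrial tRNA bears on these splits was not tested.

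**Figure D1:**
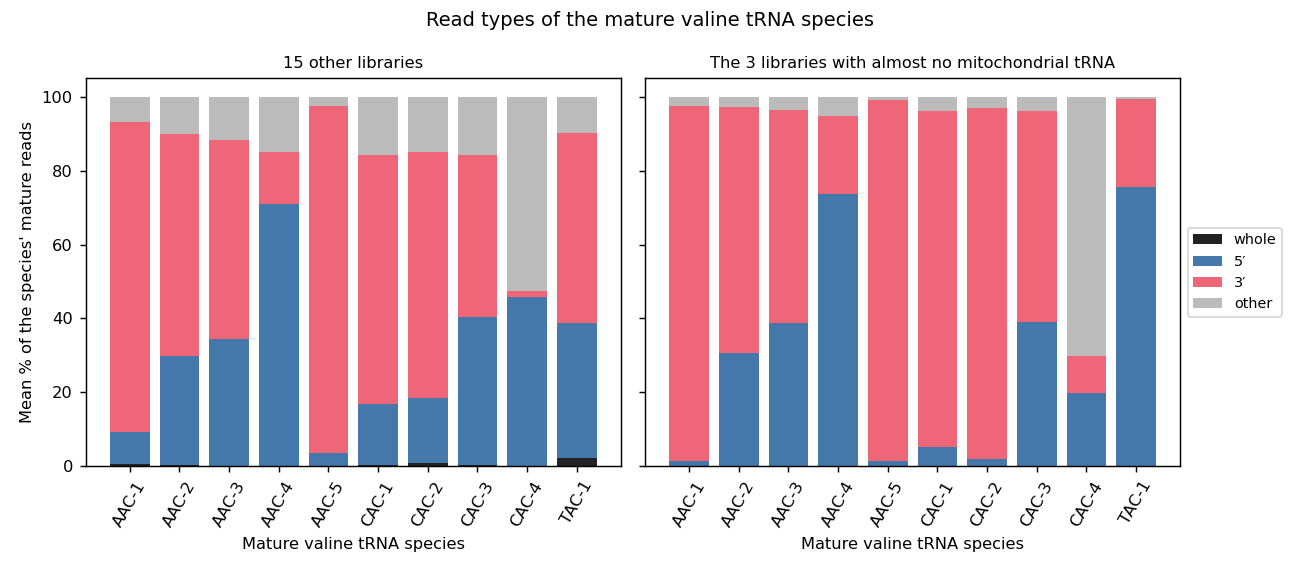
Mean percentage of the reads of each mature valine species that were whole, 5′, 3′ or other reads, in the 15 other libraries (left) and in the 3 libraries with almost no mitochondrial tRNA (right). tRNA-Val-AAC-5 was read mostly from its 3′ end in both, and the 5′ part of tRNA-Val-TAC-1 was larger in the 3 libraries, where it spanned 72.0% to 79.0%.

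Several of these species cannot be taken as independent measurements, since their counts were identical or nearly so. The 5′ and the other reads of tRNA-Val-AAC-2 and tRNA-Val-AAC-3 were identical in 18 of 18 libraries. The other reads of tRNA-Val-CAC-2 and tRNA-Val-CAC-4 differed by 0.00916%, and the 3′ reads of tRNA-Val-AAC-1 and tRNA-Val-AAC-5 by 2.35%. Near-equal counts were also found across anticodons. The 3′ reads of tRNA-Val-AAC-2 and tRNA-Val-CAC-1 differed by 3.66%, those of tRNA-Val-AAC-1 and tRNA-Val-CAC-2 by 8.33% and those of tRNA-Val-AAC-3 and tRNA-Val-CAC-3 by 8.69%. Values of these species are therefore uncertain, as are those of the AAC and CAC families for 3′ reads, other reads and all mature reads, in which near-equal counts enter more than 1 time.

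The order of the 3 anticodons depended on which reads were counted and on how near-equal counts were treated. Valine tRNAs are nearly equal in length, so their read shares were compared without a length correction. Of all mature valine reads, AAC took a mean of 37.9%, CAC 33.3% and TAC 28.8%. AAC exceeded CAC in 11 of 18 libraries and CAC exceeded TAC in 14, so neighbours in this order overlapped. For 3′ reads AAC was above CAC in 18 of 18 libraries (mean 48.4% against 29.2%). This order rested on near-equal counts. In a setting chosen after seeing the data, entries of 1 anticodon and read type whose counts differed by at most 5% were counted once, which left out the 3′ reads of tRNA-Val-AAC-5, the 5′ and other reads of tRNA-Val-AAC-3 and the other reads of tRNA-Val-CAC-2. AAC then took a mean of 34.4% of 3′ reads and CAC 37.6%, with AAC above CAC in only 2 of 18 libraries. Of all mature valine reads AAC then took 27.8%, CAC 37.1% and TAC 35.1%. Near-equal counts across anticodons remained in this setting, so no order of AAC and CAC can be given for these reads.

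For the read types other than 3′, AAC did not lead on average. Among whole mature reads TAC took 57.1% on average and was the highest in 15 of 18 libraries. The exceptions were the 3 libraries that stood apart, where TAC took a mean of 15.5% against 65.4% in the other 15. Among 5′ reads TAC took 52.0%, CAC 30.8% and AAC 17.2%, and TAC exceeded AAC in 18 of 18 libraries, also with near-equal counts taken once. Of reads touching neither end CAC took 59.7% ± 2.58 (SD, n = 18), in every library above AAC and TAC. With near-equal counts taken once this was 46.4% ± 2.85, and CAC was the highest in 15 of 18 libraries. Among precursor reads CAC was again first, with 50.6% ± 5.50, above AAC in 18 of 18 libraries and above TAC in 17.

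**Figure D2:**
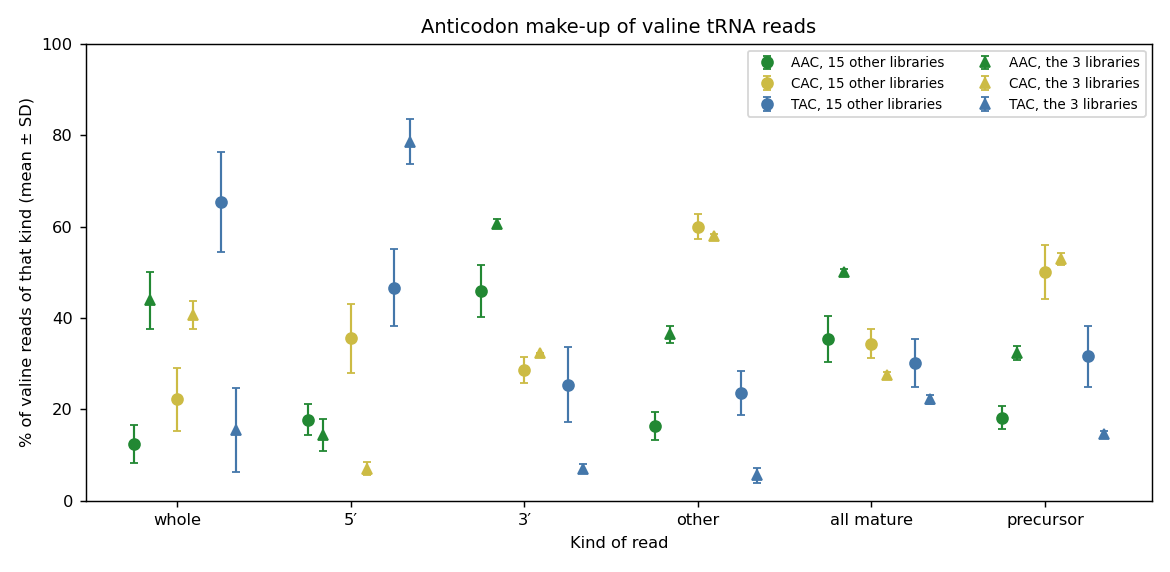
Percentage of the valine reads of each kind that belonged to AAC, CAC and TAC, as mean and SD over the 15 other libraries (circles) and over the 3 libraries with almost no mitochondrial tRNA (triangles). Over all 18 libraries TAC led in whole and 5′ reads, AAC in 3′ reads and CAC in other and precursor reads, with means of 57.1%, 52.0%, 48.4%, 59.7% and 50.6%, all entries counted. With near-equal counts taken once, AAC had 34.4% of 3′ reads and no longer led.

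Valine tRNAs together made up 4.73% ± 0.828 of mature tRNA reads (SD, n = 18). With all entries counted, tRNA-Val-AAC ranked 11, tRNA-Val-CAC 13 and tRNA-Val-TAC 14 among 50 mature families by mean share. Near-equal counts enter these ranks more than 1 time, so they give no order of AAC and CAC. Within the families a few species carried most reads. tRNA-Val-TAC-1 (1.37% of mature reads), tRNA-Val-CAC-2 (1.07%), tRNA-Val-AAC-1 (0.797%) and tRNA-Val-AAC-5 (0.712%) ranked 19, 22, 25 and 27 of 213 species. The shares of the last 3 are not independent. The 3′ reads of tRNA-Val-AAC-1 differed by 2.35% from those of tRNA-Val-AAC-5 and by 8.33% from those of tRNA-Val-CAC-2.

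The minor species ranged from 0.262% for tRNA-Val-CAC-4 to 0.0655% for tRNA-Val-AAC-4, with tRNA-Val-CAC-3, tRNA-Val-AAC-2, tRNA-Val-CAC-1 and tRNA-Val-AAC-3 between 0.134% and 0.0994%. tRNA-Val-CAC-5 had only 9 to 127 reads per library and was below the minimum for testing (a mean of 0.001% of the class), so 10 of 11 species were tested. tRNA-Val-CAC-4 varied most among the tested species over all 18 libraries, with 0.0394% to 0.0547% in the 3 libraries that stood apart and 0.174% to 0.534% in the other 15. Over those 15 alone tRNA-Val-AAC-4 varied most, with an SD of its log2 share of 0.61 against 0.49 for tRNA-Val-CAC-4. tRNA-Val-CAC as a family varied little. Its log2 share had an SD of 0.29 over the 18 libraries, rank 47 of 49 tested families by spread, where the median family had 0.58.

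The mature tRNA-Val-AAC share in WT shCT mice 3, 5, 6, 11 and 15 was 2.01%, 2.70%, 1.79%, 1.88% and 1.37%. In WT shRTP801 mice 4, 10, 17 and 21 it was 2.36%, 1.26%, 1.38% and 1.45%, in 5xFAD shCT mice 1, 16 and 18 it was 2.00%, 1.30% and 1.82%, and in 5xFAD shRTP801 mice it ran from 1.05% over a median of 2.00% to 2.32%. The highest values of both WT groups were the libraries that stood apart, and all 4 groups overlapped.

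The mature tRNA-Val-CAC share was 1.58%, 1.45%, 1.98%, 1.36% and 1.38% in the same order of WT shCT mice. It was 1.34%, 1.89%, 1.19% and 1.65% in WT shRTP801, 1.87%, 1.27% and 1.50% in 5xFAD shCT and 1.20% to 2.37% with a median of 1.49% in 5xFAD shRTP801. The group means lay between 1.52% and 1.64%, closer together than the mice of any group.

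The mature tRNA-Val-TAC share was 1.21%, 1.17%, 1.60%, 1.04% and 1.39% in WT shCT and 1.01%, 1.83%, 1.31% and 1.42% in WT shRTP801. In 5xFAD shCT it was 2.13%, 1.75% and 1.24%, and in 5xFAD shRTP801 0.777% to 2.01% with a median of 1.18%. Mice 1 and 16 of 5xFAD shCT were above all WT shCT mice, while mouse 18 lay among them, so these groups overlapped too.

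**Figure D3:**
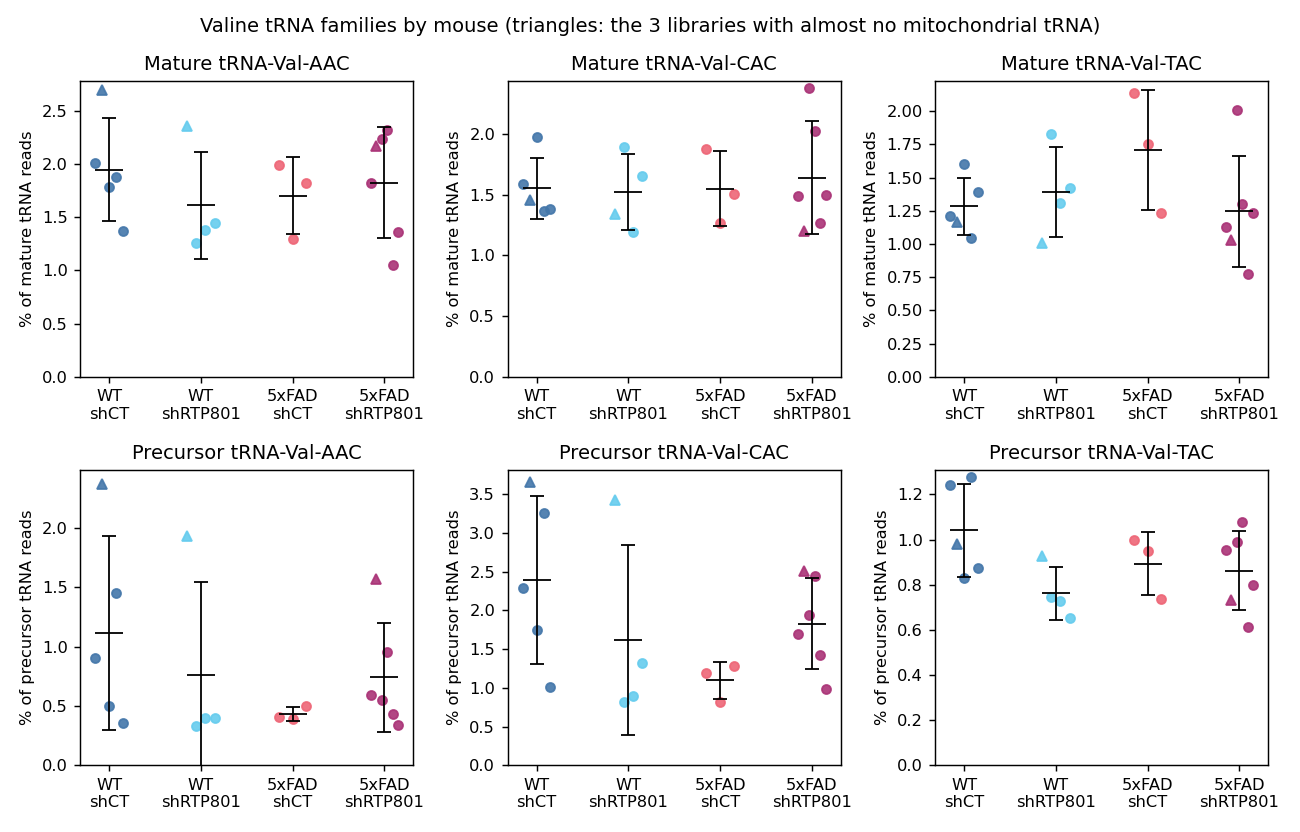
Share of mature (top) and precursor (bottom) tRNA reads taken by the 3 valine families in each mouse, by group, with group means and SD. The mature groups overlapped in every panel, and the 3 libraries that stood apart (triangles) were the highest of their groups for precursor tRNA-Val-AAC.

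In precursor reads the valine families were spread much more widely. Valine loci together made up 3.51% ± 1.61 of precursor reads (SD, n = 18), with 4.81% to 7.004% in the 3 libraries that stood apart and 1.90% to 5.98% in the other 15. tRNA-Val-CAC, tRNA-Val-TAC and tRNA-Val-AAC ranked 10, 16 and 17 of 48 precursor families. Precursor reads per 1000 mature reads had medians of 4.85 for CAC, 3.49 for TAC and 1.58 for AAC. In the 3 libraries they were 25.9 to 36.1 for CAC, 9.26 to 12.4 for TAC and 8.23 to 12.5 for AAC.

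Precursor tRNA-Val-CAC took 2.29%, 3.65%, 1.74%, 3.26% and 1.02% of precursor reads in WT shCT mice 3, 5, 6, 11 and 15. It took 3.42%, 0.824%, 0.890% and 1.32% in WT shRTP801 mice 4, 10, 17 and 21, 1.19%, 0.825% and 1.28% in 5xFAD shCT mice 1, 16 and 18, and 0.986% to 2.50% with a median of 1.82% in 5xFAD shRTP801. The 5xFAD shCT mice were at the low end, below 4 of 5 WT shCT mice, and mouse 15 of WT shCT lay among them.

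Precursor tRNA-Val-AAC took 0.9003%, 2.37%, 0.498%, 1.45% and 0.357% in WT shCT and 1.93%, 0.329%, 0.402% and 0.398% in WT shRTP801. In 5xFAD shCT it took 0.406%, 0.394% and 0.499%, and in 5xFAD shRTP801 0.340% to 1.57% with a median of 0.572%. The spread within WT shCT, from 0.357% to 2.37%, covered all mice of 5xFAD shCT, and the groups overlapped.

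Precursor tRNA-Val-TAC varied least of the 3 valine families. It took 1.24%, 0.982%, 0.832%, 1.28% and 0.875% in WT shCT, 0.927%, 0.744%, 0.727% and 0.652% in WT shRTP801, 0.997%, 0.949% and 0.736% in 5xFAD shCT, and 0.614% to 1.08% with a median of 0.876% in 5xFAD shRTP801. Its log2 share had an SD of 0.30 over the 18 libraries, rank 47 of 48 families, against 0.71 for CAC, 0.93 for AAC and 0.81 for the median family. Without the 3 libraries the SD was 0.32, 0.61 and 0.62 for TAC, CAC and AAC.

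Most valine precursor reads came from few loci. The 6 loci with the highest mean share (tRNA-Val-CAC-2-4, tRNA-Val-TAC-1-1, tRNA-Val-AAC-1-2, tRNA-Val-CAC-2-1, tRNA-Val-CAC-2-3 and tRNA-Val-CAC-2-5) held 62.3% to 74.5% of them. tRNA-Val-CAC-2-4 was first, with 0.671% of all precursor reads on average. tRNA-Val-TAC-1-1 followed with 0.497% and tRNA-Val-AAC-1-2 with 0.425%, and the other 3 had 0.333%, 0.329% and 0.235%.

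Loci with the same mature sequence differed in how widely they varied. tRNA-Val-AAC-1-2 took 0.882% to 1.43% in the 3 libraries that stood apart and 0.150% to 0.779% in the other 15, while tRNA-Val-AAC-1-1 stayed between 0.0434% and 0.0857% in all 18. Their ratio was 15.1 to 18.4 in the 3 libraries and 2.53 to 9.09 in the others. tRNA-Val-CAC-2-4 likewise took 1.37% to 2.02% in the 3 and 0.201% to 1.36% in the rest, and its ratio to tRNA-Val-CAC-2-3 was 3.54 to 10.2 against 0.851 to 2.50. The TAC loci and tRNA-Val-AAC-1-1 were among the least variable of 333 tested loci, at ranks 325, 319, 323 and 328 by SD for tRNA-Val-TAC-1-1, tRNA-Val-TAC-1-2, tRNA-Val-TAC-1-3 and tRNA-Val-AAC-1-1.

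**Figure D4:**
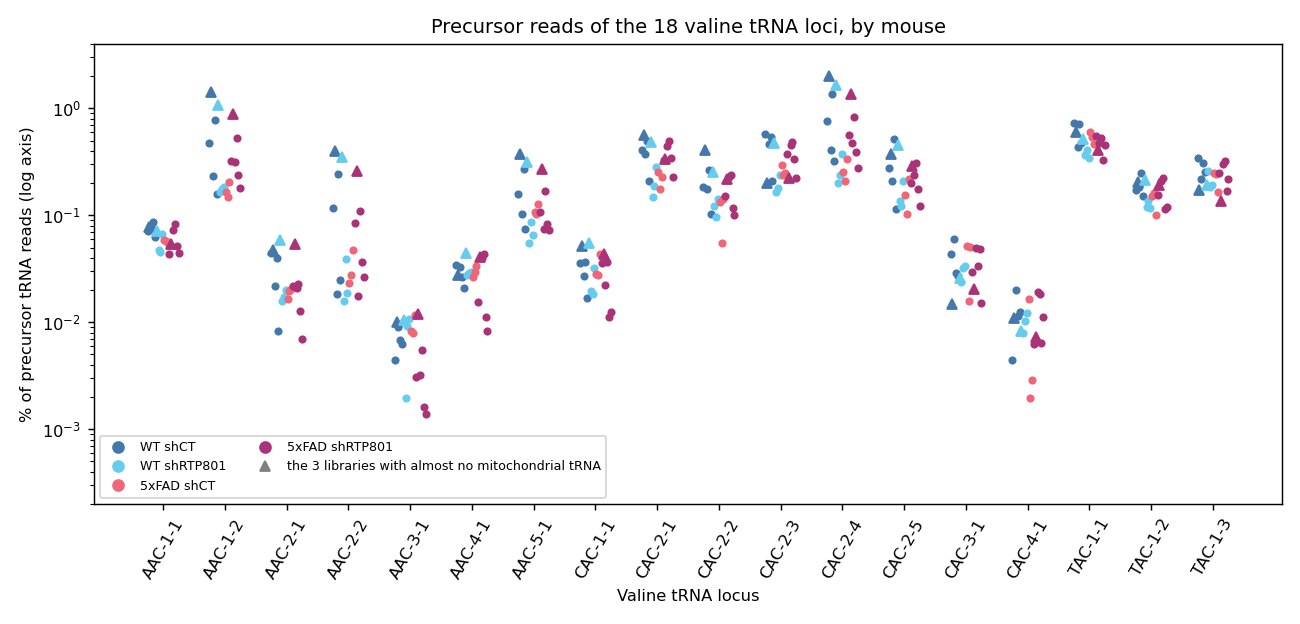
Share of precursor tRNA reads (log axis) of each of the 18 valine loci in each mouse, coloured by group, with triangles for the 3 libraries with almost no mitochondrial tRNA. The triangles lay at the top for tRNA-Val-AAC-1-2, tRNA-Val-AAC-2-2 and tRNA-Val-CAC-2-4 and within the other libraries for tRNA-Val-AAC-1-1 and tRNA-Val-TAC-1-1.

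Whole precursor reads, which span a pre-tRNA with its flanks, came mainly from a single CAC locus. Partial reads were 97.6% to 99.8% of valine precursor reads, and the 18 libraries held 645 whole valine precursor reads in all. tRNA-Val-CAC-2-5 gave 426 of them (66.05%), in 18 of 18 libraries, where they were 1.08% to 17.2% of its own reads. tRNA-Val-AAC-5-1 gave 88 and tRNA-Val-AAC-2-2 gave 76. The more abundant tRNA-Val-CAC-2-4 gave 9, and the 3 TAC loci together 4. Trailer reads never exceeded 3 per library.

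The first comparison asked what the 5xFAD genotype changed under the control hairpin. No valine tRNA passed an adjusted p of 0.05 between 5xFAD shCT and WT shCT in limma, and no other tRNA did either (0% of features in all 5 tables). With all 18 libraries, precursor tRNA-Val-AAC and tRNA-Val-CAC had the lowest means in 5xFAD shCT of all groups, and mature tRNA-Val-TAC the highest. For these 2 precursors WT shRTP801 was lowest without the 3 libraries that stood apart. Its means were then 0.376% (AAC) and 1.01% (CAC), against 0.433% and 1.10% in 5xFAD shCT. On the log2 share, precursor CAC differed by -1.01 (SE 0.49, 95% interval -2.05 to 0.02, limma adjusted p = 0.312) and precursor AAC by -1.04 (interval -2.43 to 0.35, adjusted p = 0.349). These differences without the 3 libraries that stood apart were -0.82 (limma adjusted p = 0.252) and -0.69 (adjusted p = 0.376). Precursor TAC differed by -0.21, with an interval of -0.77 to 0.35. In whole hippocampi, fewer cells of a type and less of a tRNA per cell cannot be told apart.

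The mature families differed less between these groups. tRNA-Val-TAC differed by 0.39 (interval -0.23 to 1.01, adjusted p = 0.532), tRNA-Val-AAC by -0.18 (-0.84 to 0.48) and tRNA-Val-CAC by -0.01 (-0.56 to 0.54). The median over the 3 valine families was -0.01 in mature and -1.01 in precursor reads, and over all families 0.23 and -0.02. Differences within these intervals could not be resolved with 3 and 5 mice.

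Within the precursors, tRNA-Val-CAC-2-4 differed most of the 6 leading loci, with 0.254%, 0.211% and 0.340% in 5xFAD shCT mice 1, 16 and 18. In WT shCT mice 3, 5, 6, 11 and 15 it had 0.767%, 2.02%, 0.412%, 1.36% and 0.324%. The groups overlapped through WT shCT mouse 15 alone, and the difference was -1.56 on the log2 scale (SE 0.71, adjusted p = 0.313). Without the 3 libraries it was -1.21 (adjusted p = 0.291). tRNA-Val-AAC-1-1, named after its values were seen, was the only valine locus whose groups did not overlap, at 0.0552% to 0.0594% against 0.0627% to 0.0857% (exact permutation p = 0.0357, 0.415 after Benjamini-Hochberg over all loci, n = 3 and 5). Of all 333 loci, 9.91% did not overlap in this comparison.

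The mature species nearest to a threshold was tRNA-Val-AAC-4. It had 0.101%, 0.0583% and 0.105% in 5xFAD shCT and 0.0467%, 0.0386%, 0.0855%, 0.0288% and 0.0459% in WT shCT, overlapping through WT shCT mouse 6. The log2 difference was 0.88 (SE 0.39, unadjusted p = 0.0374, limma adjusted p = 0.539). At an unadjusted limma p under 0.05 there were 0 of 3 valine families, 1 of 10 species and 0 of 40 read types in mature tRNA, and 0 of 3 families and 1 of 18 loci in precursors. The shares over all features of these tables were 4.08%, 5.38%, 2.55%, 12.5% and 15.6%, and counts of 0 or 1 among so few valine features do not stand out from them.

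The second comparison asked what the RTP801 hairpin changed in WT mice. No valine tRNA and no other feature passed an adjusted p of 0.05 in limma. Precursor tRNA-Val-TAC came nearest among valine families, with a mean of 0.762% in WT shRTP801 and 1.04% in WT shCT. The log2 difference was -0.44 (interval -0.95 to 0.07, adjusted p = 0.388), and the exact permutation p was 0.0556 (0.444 after adjustment, n = 4 and 5), where the smallest p these groups allow is 0.00794. Mouse 4 of WT shRTP801, a library that stood apart, lay above the 2 lowest WT shCT mice. The other 3 WT shRTP801 mice were below all of WT shCT. Without the 3 libraries that stood apart, the means were 0.707% in WT shRTP801 and 1.06% in WT shCT. The exact permutation p was then 0.0857 (0.343 after adjustment, n = 3 and 4).

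Precursor tRNA-Val-CAC and tRNA-Val-AAC differed by -0.69 (-1.64 to 0.26) and -0.65 (-1.93 to 0.62), and their size moved with single libraries. Without WT shRTP801 mouse 4 they were -1.13 (limma adjusted p = 0.144) and -1.24 (adjusted p = 0.174), and without WT shCT mouse 5 they were -0.4995 and -0.30. Without the 3 libraries the values were -0.95 (interval -1.80 to -0.09, unadjusted p = 0.0324, adjusted p = 0.169) and -0.89 (adjusted p = 0.169). The mature families differed by -0.29 (AAC), -0.04 (CAC) and 0.10 (TAC), all with intervals that include 0. Unadjusted, 0 of the valine families, species, read types and loci passed 0.05, against 12.2% of mature families, 10.8% of species, 2.82% of read types, 4.17% of precursor families and 10.2% of loci. Groups without overlap were found for 1.50% of loci and for 0 of 18 valine loci.

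The third comparison asked what the hairpin changed in 5xFAD mice. Here too 0 valine tRNAs and 0 features in all passed the adjusted threshold in limma. Precursor tRNA-Val-CAC was on average 1.83% in 5xFAD shRTP801 and 1.10% in 5xFAD shCT, a log2 difference of 0.70 (interval -0.31 to 1.70, adjusted p = 0.5682; exact permutation p = 0.0833, n = 6 and 3). Precursor AAC differed by 0.58 (-0.76 to 1.93) and TAC by -0.07 (-0.61 to 0.47). CAC differed by 0.59 and AAC by 0.33 without the 3 libraries. Of the 6 shRTP801 mice, 5 exceeded every 5xFAD shCT mouse for CAC and mouse 19 lay among them.

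In mature reads tRNA-Val-TAC differed by -0.48 on the log2 scale in 5xFAD shRTP801, with an interval of -1.08 to 0.12 (adjusted p = 0.949), while AAC and CAC differed by 0.07 and 0.06. tRNA-Val-AAC-3-1, a rare locus with 1 to 38 reads per library, was the 1 valine locus of 18 with an unadjusted p under 0.05 (log2 -1.15, unadjusted p = 0.0455, limma adjusted p = 0.598). The background was 7.51% of loci, and 4.17% of precursor families, 2.04% of mature families, 1.08% of species and 1.61% of read types, where valine had 0. Without the 3 libraries that stood apart, 6 of 40 valine read types had an unadjusted limma p under 0.05, beside 57 of 744 over all tRNAs. After adjustment these counts were 0 and 5. Groups without overlap were 5.71% of all loci and 0 of 18 valine loci.

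The last pair set 5xFAD shRTP801 against WT shRTP801. No feature passed the adjusted threshold in limma, and the 3 valine families differed by 0.17 (AAC), 0.09 (CAC) and -0.19 (TAC) in mature reads and by 0.19, 0.37 and 0.16 in precursor reads. All 6 intervals included 0, the widest being -1.03 to 1.42 for precursor AAC. Leaving out 1 mouse at a time moved precursor CAC between 0.13 and 0.82 and mature TAC between -0.34 and -0.048. In the other 15 libraries precursor CAC differed by 0.71 and AAC by 0.53, with intervals that still included 0. Unadjusted, only the 5′ reads of tRNA-Val-AAC-4 passed, as 1 of 40 valine read types against 1.61% of all (log2 ratio to its other reads -0.93, adjusted p = 0.999). The backgrounds with no valine call were 0% of mature families, 0.538% of species, 6.25% of precursor families and 2.10% of loci.

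The hairpin's effect was then compared between genotypes through the interaction term, the difference in 5xFAD minus the difference in WT. Precursor tRNA-Val-CAC gave 1.38 (SE 0.65, interval 0.00 to 2.76, unadjusted p = 0.04997, adjusted p = 0.2399), with group means of 2.39%, 1.61%, 1.10% and 1.83%, in the order WT without and with the RTP801 hairpin, then 5xFAD without and with it. Thus the mean was lower with the hairpin in WT and higher in 5xFAD mice, and neither the single differences nor the interaction passed the adjusted threshold. Without the 3 libraries the interaction was 1.54 (adjusted p = 0.0919), and without WT shRTP801 mouse 4 alone 1.83 (adjusted p = 0.0801). Precursor AAC gave 1.24 (-0.62 to 3.09) and TAC 0.37 (-0.37 to 1.11).

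Among loci the same term was 2.00 for tRNA-Val-CAC-2-4 (SE 0.95, adjusted p = 0.318) and 1.34 for tRNA-Val-CAC-2-1 (SE 0.58, adjusted p = 0.305). It was, without the 3 libraries, 2.07 (limma adjusted p = 0.109) and 1.54 (adjusted p = 0.114). tRNA-Val-AAC-4 gave -1.30 in mature reads (SE 0.52, adjusted p = 0.390), with group means of 0.0491% and 0.0775% in WT and 0.0882% and 0.0599% in 5xFAD mice without and with the hairpin. Its 5′ reads gave -1.71 (adjusted p = 0.766). Unadjusted calls were 2 of 18 loci, 1 of 3 precursor families, 1 of 10 species, 1 of 40 read types and 0 of 3 mature families. The background was 15.3%, 20.8%, 9.68%, 4.70% and 8.16%, and these valine counts are small.

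**Figure D5:**
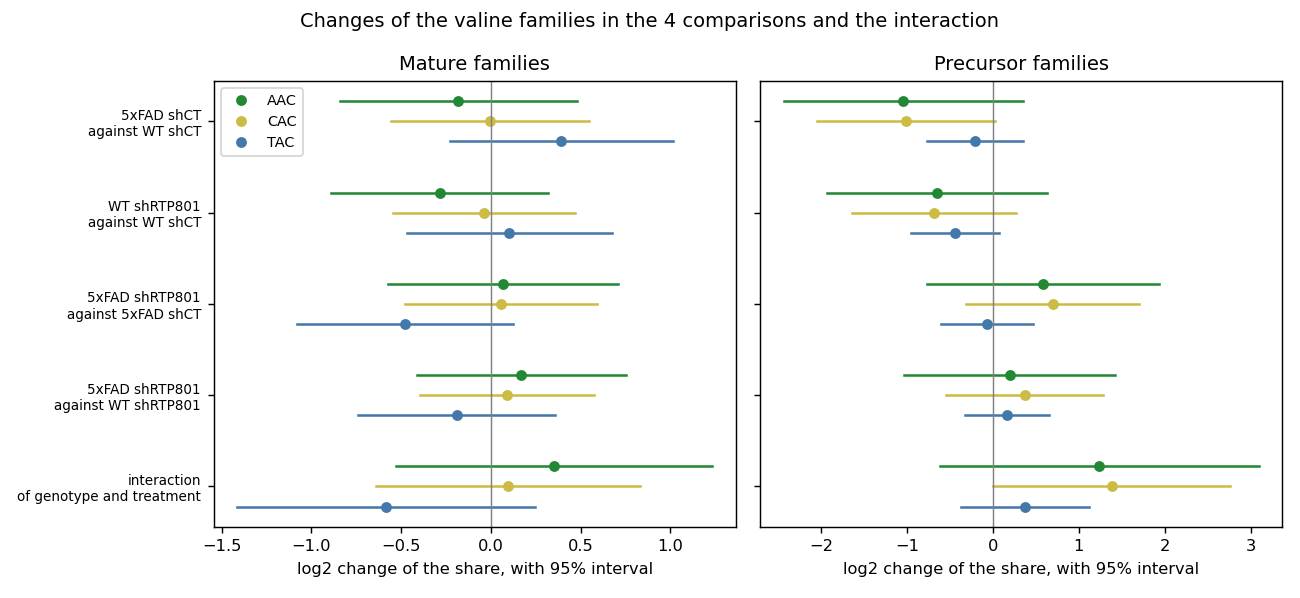
log2 differences of the 3 valine families in mature and precursor reads for the 4 group comparisons and the interaction, with 95% intervals from limma. The lower bound for precursor tRNA-Val-CAC in the interaction lay at 0.00, every other interval included 0, and precursor AAC had the widest intervals.

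Over all 5 tables and 5 contrasts, limma gave 0 of 370 valine tests past the adjusted threshold and 9 at an unadjusted p under 0.05, beside 0 and 355 of 6800 tests in all (5.22% unadjusted). Without the 3 libraries that stood apart there were 27 unadjusted valine calls (7.3%) beside 753 of 6800 (11.1%). The valine calls included 6 of 40 read types in 5xFAD shRTP801 against 5xFAD shCT, a larger share than the 57 of 744 read types over all tRNAs. Over all settings run, the lowest limma adjusted p of a valine read type was 0.0750, against 0.766 in the main fit. Adjusted calls were then 0 for valine and 5 in all. On the recovered reads of families, species and loci, edgeR gave 0 adjusted calls and 12 unadjusted of 170 valine tests (7.06%), beside 235 of 3080 tests over all tRNAs (7.63%). DESeq2 gave 0 adjusted and 12 unadjusted valine calls, beside 2 adjusted and 277 unadjusted calls (8.99%) over all.

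tRNA-Val-AAC is 1 of 8 families with an A at the first anticodon position that is edited to inosine, beside Ala-AGC, Arg-ACG, Ile-AAT, Leu-AAG, Pro-AGG, Ser-AGA and Thr-AGT. Between 5xFAD shCT and WT shCT, 5 of these 8 families had a mature log2 difference above 0, from -0.53 to 1.51 with a median of 0.25, beside 0.23 over all 49 families. In precursors 4 of 8 were above 0, from -1.04 to 2.34, with a median of -0.05 beside -0.02. tRNA-Val-AAC stood 7th from the top in mature and last in precursor reads, and 0 of the 8 passed the adjusted threshold in any contrast. With the hairpin in 5xFAD mice, the precursor of tRNA-Val-AAC had the highest difference of the 8 (0.58), where 3 of 8 were above 0 and the median was -0.34. These ranks used all 18 libraries and were not repeated without the 3 that stood apart. Without those 3, precursor tRNA-Val-AAC differed by 0.33 with the hairpin in 5xFAD mice and by -0.69 between 5xFAD shCT and WT shCT. With the mature share of reads as a covariate and every library kept, the 0.58 became -0.10.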

How the data were processed

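Hydro-tRNA-seq libraries of 18 mice were paired-end sequenced, and the authors had the reads counted per tRNA and read type with tRAX. The deposited values are a normalized signal, that is counts divided by 1 size factor per library. The submitters' processing notes name mm39, and the tRAX version and aligner are not given in the sources used here. Every value was a whole multiple of the smallest non-zero value of its library (100% of values, tolerance 0.001), so reads were recovered by division. Totals per library were 18527898 to 89228299 reads, and reads counted for several tRNAs enter more than once. Shares are percentages of mature or of precursor tRNA reads.

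Groups come from the labels. log2(percentage + 0.001%) was fitted with limma 3.58.1 in R 4.3.3 over 49 mature families, 186 mature species, 48 precursor families and 333 loci with a mean of at least 0.001%. Read types were fitted as log2 ratios to the other reads of the species, with 0.5 added. These were 744 features of species that averaged 100 reads or more, all read types summed. All 18 libraries entered 1 fit with 4 groups, and p-values were adjusted by Benjamini-Hochberg within each table and contrast (threshold 0.05). For single shares, the absolute difference between 2 group means was set against all exact two-sided permutations of the mice. edgeR 4.0.16 (quasi-likelihood, 0 adjusted calls of 3080 tests) and DESeq2 1.42.0 (2 calls) on recovered reads were alternatives, as were other pseudocounts, filters, scalings, a mean-variance trend, a covariate for the mature share of reads and leaving out each mouse. The limma and permutation code was tested on simulated data. Shares and figures were made in Python 3.11.15 with pandas 2.3.3, NumPy 2.4.6, SciPy 1.17.1 and Matplotlib 3.10.9.

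The text names the 3 families, every species, the 6 loci with the highest mean share and any locus with an unadjusted p under 0.05 in a group contrast. tRNA-Val-AAC-1-1, AAC-2-1, AAC-2-2, AAC-4-1, AAC-5-1, TAC-1-2 and TAC-1-3 were named after their values were seen. The members and lists were chosen with earlier results of these data known. The settings without the 3 libraries and with near-equal counts taken once were added after seeing the data. Antisense entries were left out, and no sequences or coordinates were used. p-values measure the spread between mice with 1 library each.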

Additional observations from a re-analysis of the deposited data

Results flagged for a closer look

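In 111 combinations of a valine feature and a group of 4 to 6 mice, the highest and lowest mouse were checked for distance. Of these values, 15 lay apart from the rest of their group. Chance gives about 1 in 20 in independent checks. The features share reads and the combinations share mice, so these checks were not independent and the 15 cannot be set against that rate. Of the 15, 13 belonged to 2 of the 3 libraries with almost no mitochondrial tRNA, and the part of that feature was not tested.

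WT shRTP801 mouse 4 was far above the other 3 mice of its group in precursor tRNA-Val-AAC (1.93% of precursor reads, others 0.329% to 0.402%). The same mouse lay apart at tRNA-Val-AAC-1-2 (1.08%), tRNA-Val-AAC-2-1 (0.0590%), tRNA-Val-AAC-2-2 (0.355%), tRNA-Val-AAC-4-1 (0.0440%), tRNA-Val-AAC-5-1 (0.313%) and tRNA-Val-CAC-2-4 (1.67%, others 0.201% to 0.371%). It also had 8.23 precursor reads per 1000 mature reads for AAC and 25.9 for CAC.

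5xFAD shRTP801 mouse 7 lay apart at tRNA-Val-AAC-2-1 (0.0534%) and in precursor reads per 1000 mature reads, with 12.5 for AAC, 36.1 for CAC and 12.4 for TAC. The other 2 values were in libraries with ample mitochondrial tRNA. WT shRTP801 mouse 10 had 0.258% for tRNA-Val-TAC-1-3, above the rest of its group, and WT shRTP801 mouse 17 had 0.786% for mature tRNA-Val-CAC-2, below the rest of its group.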

How the results depend on the processing

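Valine features past the adjusted threshold were counted 33 times (25 limma counts over tables and contrasts and 8 from exact tests of families). Each count stayed at 0 under every setting run for it, of 34 settings in all (868 values), and read types were not run with edgeR, DESeq2 or the deposited values. Of 407 single log2 differences recomputed under settings that kept every library or left out the 3 libraries together, 392 kept their direction and 15 reversed, and 0 calls changed (lowest adjusted p 0.0919). Adding the mature share of reads as a covariate reversed mature tRNA-Val-AAC in 5xFAD shCT against WT shCT (0.11), in 5xFAD shRTP801 against 5xFAD shCT (-0.21) and in the interaction (-0.11), mature CAC in 5xFAD shCT against WT shCT (0.028), and precursor AAC in 5xFAD shRTP801 against 5xFAD shCT (-0.10) and against WT shRTP801 (-0.23). The deposited values, not divided by the class total, moved the median of all mature families in 5xFAD shCT against WT shCT from 0.23 to -0.54 and of precursor families from -0.02 to -1.002. The valine medians moved with them, to -0.78 in mature and -1.99 in precursor families, and to 2.20 in precursor families for the interaction. On that scale mature TAC reversed in all contrasts (-0.38, -0.37, 0.076, 0.064 and, for the interaction, 0.44), as did precursor TAC between the 5xFAD groups (0.77). That last value also reversed with median centring (0.32), edgeR (0.069) and DESeq2 (0.081). The causes were not tested.

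Leaving out each mouse reversed 24 of 684 values, with a lowest adjusted p of 0.0760. The ranges were, for 5xFAD shCT against WT shCT, -0.31 to 0.00295 (mature AAC) and -0.15 to 0.13 (mature CAC). For WT shRTP801 against WT shCT they were -0.15 to 0.069 (mature CAC) and -0.040 to 0.25 (mature TAC). For 5xFAD shRTP801 against 5xFAD shCT they were -0.12 to 0.22 (mature AAC), -0.079 to 0.20 (mature CAC) and -0.20 to 0.025 (precursor TAC). For 5xFAD shRTP801 against WT shRTP801 they were -0.027 to 0.20 (mature CAC) and -0.065 to 0.78 (precursor AAC), and for the interaction -0.041 to 0.24 (mature CAC). No paired analysis was possible because no mouse number occurs in 2 groups. Groups of 3 to 6 mice and 1 to 38 reads at the valine locus with the lowest mean share limit what could be resolved.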
